A study of Mus musculus with 4 samples.

Results

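The 8 genes followed here mark lymphocytes held in a tissue or leaving it, and were described in natural killer and type 1 innate lymphoid (NK/ILC1-like) cells, CD8 T cell-like cells and CD4 T cell-like cells of the mouse submandibular gland. The members are Itgae, Itga1, Cd69, Rgs1, S1pr1, S1pr5, Zfp683 and Klf2, found by symbol among the 31053 genes of the count matrices, and 8 of 8 were present. Single-cell RNA-seq had been run on stroma-enriched suspensions of female C57BL6/J mice, with epithelial and red blood cells depleted on EpCAM and Ter119 beads and dead cells removed. The deligated group (2 libraries) came from mice aged 14 weeks whose ducts had been clipped for 14 days and then released for 5 days. The homeostatic group (2 libraries) came from mice aged 12 weeks without surgery, so age and surgery cannot be told apart. The protocols speak of submandibular and sublingual glands, and the number of animals behind each library is not given, so p-values measure the spread between these libraries, which may be technical. Values are counts of unique molecular identifiers (UMIs), each an estimate of 1 captured RNA molecule, and a level is given as CPM, the UMIs of a gene in the summed cells of a library scaled to the same total everywhere. A level cannot separate fewer expressing cells from less RNA per cell, so shares of cells are given beside many of the levels.

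Lymphocytes leave tissue by following sphingosine 1-phosphate, a lipid that is plentiful in blood and lymph and scarce inside tissue, through the receptors S1PR1 and, in NK cells, S1PR5. KLF2 is a transcription factor that drives S1pr1 transcription, and CD69 is a surface protein that binds S1PR1 and takes it off the cell surface. Cells that stay in epithelia, salivary gland included, often carry the integrin subunits CD103 (Itgae), which pairs with integrin beta 7 and binds E-cadherin, and CD49a (Itga1), which pairs with integrin beta 1 and binds collagen, and transcribe Zfp683, which encodes the transcription factor Hobit. RGS1 damps signalling from chemoattractant receptors.

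In GRCm38 with GENCODE M21 models, the integrin genes are long: Itgae lies on chromosome 11 from 73090583 to 73147446 with 52.3 kb of introns, and Itga1 on chromosome 13 from 114953096 to 115101964 with 130 kb. The other members hold under 4 kb of introns: Cd69 (chromosome 6, 129267325 to 129275436), Rgs1 (chromosome 1, 144242296 to 144249242), S1pr1 (chromosome 3, 115710433 to 115715072), S1pr5 (chromosome 9, 21242912 to 21248443), Zfp683 (chromosome 4, 134053838 to 134058996) and Klf2 (chromosome 8, 72319033 to 72321656). All 8 are protein coding. Itga1 overlaps Pelo and Gm49395 on its own strand and Gm10734 on the other, and Itgae overlaps Haspin on the other strand, so reads could be shared between them. RefSeq promoter windows (GRCm38.p6, 250 bases before to 50 after the start) were matched for 3 members, Klf2, S1pr5 and Itga1. The windows of Klf2 and S1pr5 are shown because KLF2 binds CACCC sites and both genes belong to egress. Capitals mark CACCC or its reverse complement GGGTG, read 5′ to 3′ on the gene's strand.
Klf2, chr8:72318812-72319111, plus strand: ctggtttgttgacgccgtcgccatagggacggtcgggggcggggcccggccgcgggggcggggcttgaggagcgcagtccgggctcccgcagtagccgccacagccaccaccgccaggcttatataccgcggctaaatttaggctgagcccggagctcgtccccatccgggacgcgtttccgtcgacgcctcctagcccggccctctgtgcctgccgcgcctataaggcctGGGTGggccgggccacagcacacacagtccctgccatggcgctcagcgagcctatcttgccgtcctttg
S1pr5, chr9:21248394-21248693, minus strand: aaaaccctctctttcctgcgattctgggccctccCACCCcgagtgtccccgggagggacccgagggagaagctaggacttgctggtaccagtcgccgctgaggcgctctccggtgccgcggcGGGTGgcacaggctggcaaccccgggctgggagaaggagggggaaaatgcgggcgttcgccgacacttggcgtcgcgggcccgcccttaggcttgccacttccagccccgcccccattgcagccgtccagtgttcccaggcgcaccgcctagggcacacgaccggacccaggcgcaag
The Klf2 window held 1 match and the S1pr5 window 2, as did that of Itga1 (chr13:115101915-115102214, minus strand). Of 32851 promoter windows in the table, 57.5% held at least 1 match and 25.3% at least 2, so such matches are common and describe the letters only.

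The 4 matrices held 4725 to 13266 barcodes, of which 4342 to 10657 per library were retained, with 14 to 54 barcodes shared between any pair of libraries. Cells were clustered without the members and without the genes used to tell CD8 from CD4 cells. NK/ILC1-like cells numbered 892, 2100, 1006 and 1041 in deligated 1, deligated 2, homeostatic 1 and homeostatic 2. In them Ncr1 and Klrb1c, NK receptor genes, had a UMI in 80.4% to 90.5% of cells, against 0.865% to 1.89% for Cd3e, part of the T cell receptor complex. Transcripts shared with T cells were not absent: Trdc, the T cell receptor delta constant gene, had a UMI in 26.4% to 28.5% of them, Trac in 3.18% to 4.71%, and 704, 1469, 740 and 785 of them held no UMI of Cd3d, Cd3e or Cd3g. In these last cells Rgs1 (1.84), Cd69 (0.78) and Klf2 (1.57) were called higher in the deligated libraries, as in the whole class. CD8 T-like cells (T cell-like, at least 1 UMI of Cd8a or Cd8b1, none of Cd4) numbered 213, 183, 55 and 54, and CD4 T-like cells (the reverse) 45, 42, 17 and 20. Of the CD8 T-like cells 92.6% to 99.1% held a Cd3e UMI, 8.92% to 23.0% Klrb1c, 5.16% to 13.1% Ncr1 and 4.92% to 10.9% Trdc. The part of such cells in the CD8 T-like results was not tested. The 2 groups filled different clusters: 98.9% of homeostatic NK/ILC1-like cells lay in cluster 4, while 78.0% of deligated ones lay in cluster 3 and 22.0% in cluster 14, and T cell-like cells lay mostly in cluster 8 (deligated, 84.4%) or cluster 25 (homeostatic, 85.9%). File headers name Cell Ranger 6.0.1 for both deligated and 7.0.0 for both homeostatic libraries, so software and group cannot be told apart. Genes with over 100 kb of introns had a median log2 fold change of -1.37 in NK/ILC1-like, -1.29 in CD8 T-like and -1.26 in T cell-like cells between the groups, against 0.02, 0.03 and 0.02 over all genes tested. Genes with at most 2 kb of introns had medians of 0.34, 0.42 and 0.38 in the same order. Rgs1, Cd69, S1pr1 and Klf2, with 0 to 1.6 kb, belong to them.

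**Figure D1:**
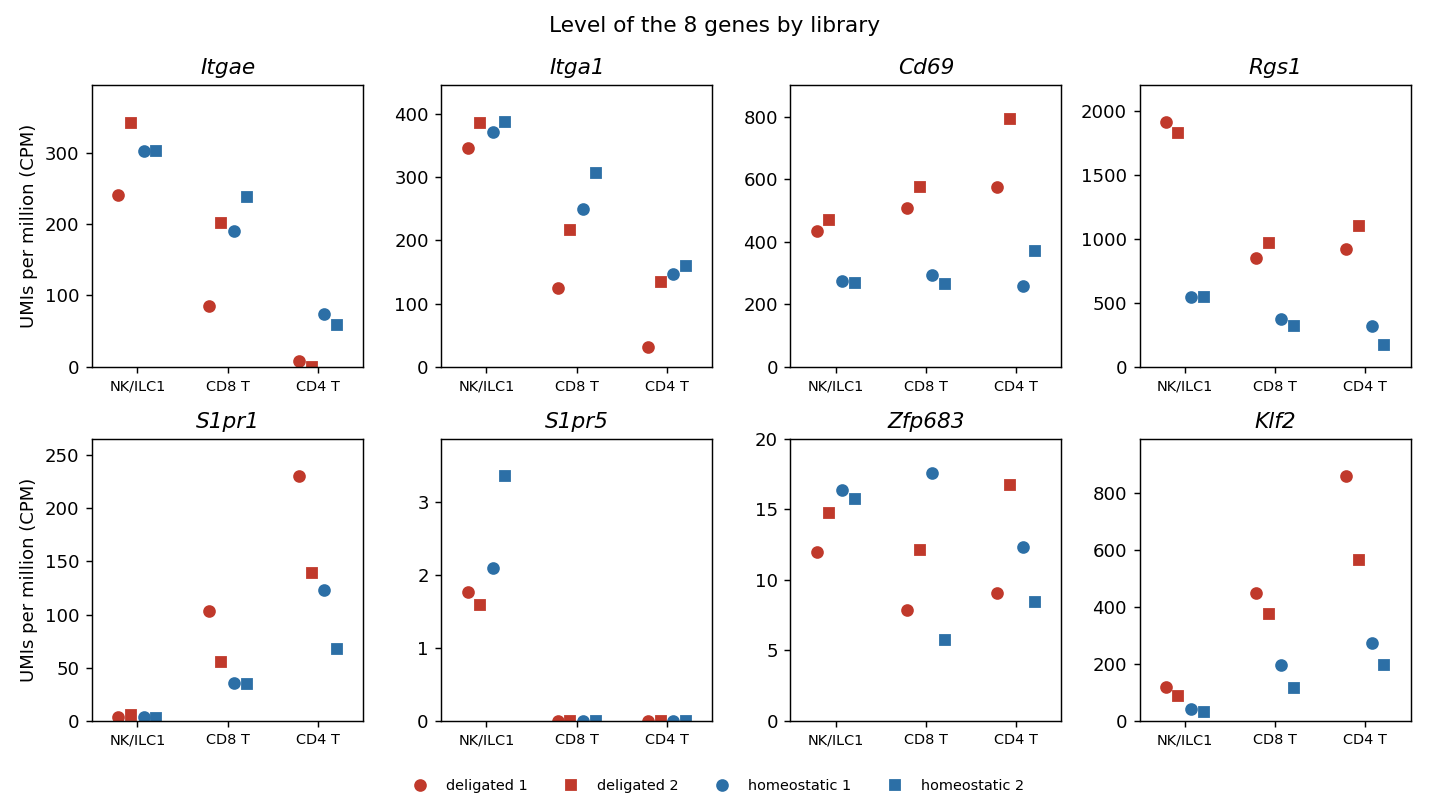
Level of each gene (CPM, linear axis from 0, each panel with its own scale) in NK/ILC1-like, CD8 T-like and CD4 T-like cells, 1 point per library. Both deligated points lie above both homeostatic points for Cd69, Rgs1 and Klf2 in all 3 populations, while the integrin genes overlap between groups in NK/ILC1-like cells.

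The integrin genes set NK/ILC1-like cells apart from CD4 T-like cells and did not pass the test between groups. Itgae in NK/ILC1-like cells stood at 240 and 342 CPM in the deligated and at 302 and 303 CPM in the homeostatic libraries. The deligated libraries lie on either side of the homeostatic pair (log2 change 0.02, SE 0.13, edgeR quasi-likelihood adjusted p 0.899). Itga1 in the same cells stood at 345 and 386 against 372 and 387 CPM, again overlapping (log2 change 0.03, SE 0.08, edgeR adjusted p 0.831). At 1000 UMIs per cell, Itga1 was detected in 28.5% and 30.3% of deligated and 30.6% and 30.4% of homeostatic NK/ILC1-like cells (at full depth 74.1% to 78.0%), and Itgae in 19.4% and 27.1% against 22.4% and 20.5% (at full depth 50.1% to 66.0%). Itgae was detected in 0% to 0.867% of fibroblast-like cells thinned the same way, cells that should lack it and that were deeper (median 6650 to 13234 UMIs against 5495.5 to 6233.5). The flat Itga1 value has to be read beside its introns: with the trend of fold change on intron length removed, Itga1 was higher in the deligated libraries by 1.00 on the log2 scale in NK/ILC1-like cells (edgeR adjusted p 0.000125) and Itgae by 0.39 (edgeR adjusted p 0.0616). Without deligated 1, Itgae passed the test upwards (0.22, edgeR adjusted p 0.0193), and without deligated 2 downwards (-0.20, edgeR adjusted p 0.0379).

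Among CD8 T-like cells Itgae stood at 85.3 and 202 CPM in the deligated and at 191 and 237 CPM in the homeostatic libraries, and Itga1 at 124 and 216 against 249 and 306 CPM. The deligated libraries differed from each other by more than 1.5 times for both genes, and Itgae overlapped between groups while Itga1 did not. Neither passed the test (Itgae -0.40, SE 0.31, edgeR adjusted p 0.404; Itga1 -0.52, SE 0.24, edgeR adjusted p 0.143). Without deligated 2 both did (Itgae -1.06, Itga1 -0.89; edgeR adjusted p 0.000267 and 0.000935), as they did at Leiden resolution 2.0, which left 200, 144, 55 and 54 CD8 T-like cells (Itgae -1.29, Itga1 -0.84; edgeR adjusted p 7.16e-05 and 0.00324). With the intron trend removed Itga1 turned to 0.45 (edgeR adjusted p 0.314). In CD4 T-like cells, where no test was made because a homeostatic library held fewer than 20 cells, Itgae rested on 2 and 0 UMIs (deligated) against 6 and 7 (homeostatic). Itga1 in CD4 T-like cells stood at 31.6 and 134 against 148 and 160 CPM. Itgb1, for the partner subunit of CD49a, was lower in the deligated CD8 T-like cells, at 398 and 432 against 898 and 698 CPM (-0.75, edgeR adjusted p 0.00569), a call that ended with the intron trend removed (-0.49, edgeR adjusted p 0.093). Itgb7, for the partner of CD103, stood at 204 and 241 against 221 and 198 CPM in all T cell-like cells and at 65.7 to 88.1 CPM in NK/ILC1-like cells, where Itgb1 stood at 444 to 808 CPM.

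Zfp683 was low in all 3 populations. In NK/ILC1-like cells it stood at 12.0 and 14.7 CPM in the deligated and 16.4 and 15.7 CPM in the homeostatic libraries, with a UMI in 7.06% to 9.54% of cells at full depth. The groups did not overlap, yet the difference did not pass the test (log2 change -0.17, SE 0.16, edgeR adjusted p 0.41). CD8 T-like cells held 9, 12, 6 and 2 Zfp683 UMIs in all, too few to be tested, and CD4 T-like cells 2, 3, 1 and 1.

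Rgs1 and Cd69 rose in deligated glands in both populations that could be tested. Rgs1 in NK/ILC1-like cells stood at 1919 and 1828 CPM against 551 and 548 CPM. The deligated values lay more than 3-fold above the homeostatic ones (log2 change 1.85, SE 0.09, edgeR adjusted p 1.95e-06). Rgs1 in CD8 T-like cells stood at 855 and 972 against 373 and 317 CPM (log2 change 1.6, SE 0.16, edgeR adjusted p 1.32e-05), and in CD4 T-like cells at 926 and 1100 against 320 and 168 CPM, untested. Cd69 in NK/ILC1-like cells stood at 436 and 471 against 275 and 269 CPM (log2 change 0.82, SE 0.08, edgeR adjusted p 8.31e-05). CD8 T-like cells gave 507 and 575 against 293 and 266 CPM (log2 change 1.15, SE 0.17, edgeR adjusted p 0.000286), and CD4 T-like cells 574 and 793 against 258 and 370 CPM. The groups overlapped for neither gene in any of these populations.

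The shares of cells moved with the levels for Rgs1. At 1000 UMIs per cell Rgs1 was detected in 71.3% and 71.8% of deligated and 36.4% and 35.2% of homeostatic NK/ILC1-like cells (full depth 95% and 95.6% against 79.4% and 78.2%). Cd69 was detected in 33.4% and 32.7% against 22.7% and 21.5% of NK/ILC1-like cells (full depth 77.4% and 76.6% against 63.0% and 65.6%). In fibroblast-like cells the shares were at most 2.60% for Rgs1 and 0.578% for Cd69. Rgs1 in CD8 T-like cells had mean shares of 43.3% in deligated and 25.6% in homeostatic libraries. For Cd69 in CD8 T-like cells the shares were 31.5% and 37.7% against 29.1% and 18.5%, a narrower gap than its level shows, and the summed thinned counts no longer passed the test for Cd69 there (0.60, edgeR adjusted p 0.218).

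KLF2 sits upstream of S1PR1, and Klf2 rose alongside Rgs1 and Cd69. Klf2 in NK/ILC1-like cells stood at 119 and 86.4 CPM against 40.1 and 29.7 CPM (log2 change 1.63, SE 0.19, edgeR adjusted p 0.000277). CD8 T-like cells gave 446 and 375 against 197 and 114 CPM (log2 change 1.6, SE 0.23, edgeR adjusted p 0.000269), and CD4 T-like cells 858 and 564 against 271 and 193 CPM. Within each library the order ran from CD4 T-like down to CD8 T-like down to NK/ILC1-like cells. Thinned counts did not keep the CD8 T-like call for Klf2 (0.81, edgeR adjusted p 0.128). Mean shares of thinned NK/ILC1-like cells with a Klf2 UMI were 7.71% (deligated) and 3.28% (homeostatic). In CD8 T-like cells they were 21.7% and 12.8%. The NK/ILC1-like rise was uneven between clusters. Cluster 14, with 22% of deligated NK/ILC1-like cells, held Klf2 at 270 and 265 CPM. Cluster 3, with 78%, held 41.9 and 46.4 CPM, against 40.3 and 29.8 CPM in homeostatic cluster 4. Klf2 in finer homeostatic clusters was not measured. Klf2 is also a strong endothelial gene, at 991 to 1422 CPM in endothelial-like cells, where 0.341 to 0.448 Klf2 UMIs were found per UMI of Cdh5, Cldn5 and Egfl7. NK/ILC1-like cells held 1.39 to 4.91 Klf2 UMIs per such UMI, above the endothelial ratio in each library.

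S1pr1 separated the T cells from NK/ILC1-like cells. CD4 T-like cells held 230 and 140 CPM in the deligated and 123 and 67.3 CPM in the homeostatic libraries, and CD8 T-like cells 104 and 55.4 against 35.2 and 34.3 CPM. NK/ILC1-like cells held only 3.52 and 5.06 against 3.43 and 2.62 CPM, from 20, 64, 23 and 18 UMIs. There the ratio of S1pr1 to endothelial UMIs was 0.146, 0.0812, 0.135 and 0.234, on either side of the 0.125 to 0.135 of endothelial-like cells themselves. NK/ILC1-like cells with no endothelial UMI held 3.50 and 4.59 against 1.29 and 2.31 CPM, from 17, 40, 8 and 15 UMIs, the largest drop being that of homeostatic 1. The group difference of S1pr1 in NK/ILC1-like cells did not pass the test (log2 change 0.62, SE 0.32, edgeR adjusted p 0.152), but it did in cells with no endothelial UMI (1.24, edgeR adjusted p 0.0341) and at Leiden resolution 2.0 (1.27, edgeR adjusted p 0.0227). The ratio in CD8 T-like cells was 3.40, 0.679, 0.286 and 1.5, above the endothelial ratio in each library. S1pr1 passed the test in CD8 T-like cells (log2 change 1.4, SE 0.38, edgeR adjusted p 0.021), but each homeostatic library held 12 UMIs. The call ended with DESeq2 (adjusted p 0.128), without deligated 1 (0.87, edgeR adjusted p 0.124), without either homeostatic library (edgeR adjusted p 0.154 and 0.125) and with the intron trend removed (edgeR adjusted p 0.147). At 1000 UMIs S1pr1 was detected in 7.51% and 4.92% of deligated and 1.82% and 3.70% of homeostatic CD8 T-like cells (full depth 26.3% and 17.5% against 10.9% and 16.7%), and the exact 95% binomial intervals, which cover counting error only, overlapped (4.35% to 11.9% in deligated 1, 0.452% to 12.7% in homeostatic 2).

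S1pr5, the receptor by which NK cells leave bone marrow and lymph nodes, was found in NK/ILC1-like cells at 1.76 and 1.58 against 2.09 and 3.35 CPM, from 10, 20, 14 and 23 UMIs. The groups did not overlap and the difference did not pass the test (log2 change -0.65, SE 0.41, edgeR adjusted p 0.228). No S1pr5 UMI was seen in CD8 or CD4 T-like cells. For the 213 CD8 T-like cells of deligated 1 a count of 0 allows a share of up to 1.41% of cells with a UMI, and for the 17 CD4 T-like cells of homeostatic 1 up to 17.6%.

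Set against all genes, 3 of 8 members rose and 0 fell in NK/ILC1-like cells, where 16.5% of 11512 genes were called higher and 26.8% lower. In CD8 T-like cells 4 of the 6 members tested rose (Rgs1, Cd69, Klf2, S1pr1) and 0 fell, beside 5.21% of 6699 genes higher and 13.2% lower. In all T cell-like cells 3 of 7 rose and 0 fell (Rgs1 1.62, Cd69 1.13, Klf2 1.37; edgeR adjusted p 8.1e-05, 0.000497 and 0.00634), beside 4.93% of 9685 genes higher and 14.4% lower. Of genes with at most 2 kb of introns, as in the members that rose, 36.7% (NK/ILC1-like), 22.4% (CD8 T-like) and 17.4% (T cell-like) were called in either direction. The T cell-like fit pools CD8, CD4 and other T cells, the others being 324, 559, 82 and 85 cells with no CD4 or CD8 UMI and, in the deligated libraries, 7 and 1 cells with both. In that pool S1pr1 stood at 102 and 41.0 against 50.2 and 31.6 CPM, overlapping between groups (log2 change 0.93, SE 0.44, edgeR adjusted p 0.181). Without deligated 2 it passed the test (1.49, edgeR adjusted p 3.2e-11), as did Itgae (-0.85, edgeR adjusted p 4.46e-07) and Itga1 (-0.87, edgeR adjusted p 1.4e-07). At Leiden resolution 2.0 the pool held 522, 528, 200 and 208 cells and these 3 members passed too (S1pr1 1.4, Itgae -1.13, Itga1 -0.92; edgeR adjusted p 0.0121, 0.00038 and 0.0229). The Klf2 call in the pool ended with stricter doublet removal (1.08, edgeR adjusted p 0.0712), which took mostly homeostatic cells, leaving 582 of 589, 753 of 785, 82 of 154 and 87 of 159 cells. Of the CD8 T-like cells it left 208 of 213, 177 of 183, 41 of 55 and 39 of 54, and there the S1pr1 call ended (1.17, edgeR adjusted p 0.0876) while Rgs1, Cd69 and Klf2 stayed called. The part of doublets in the T cell comparisons was not tested further. Of the genes called, 28.3% were higher in CD8 T-like and 25.5% in T cell-like cells, and with the intron trend removed the shares were 44.9% and 36.9%.

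**Figure D2:**
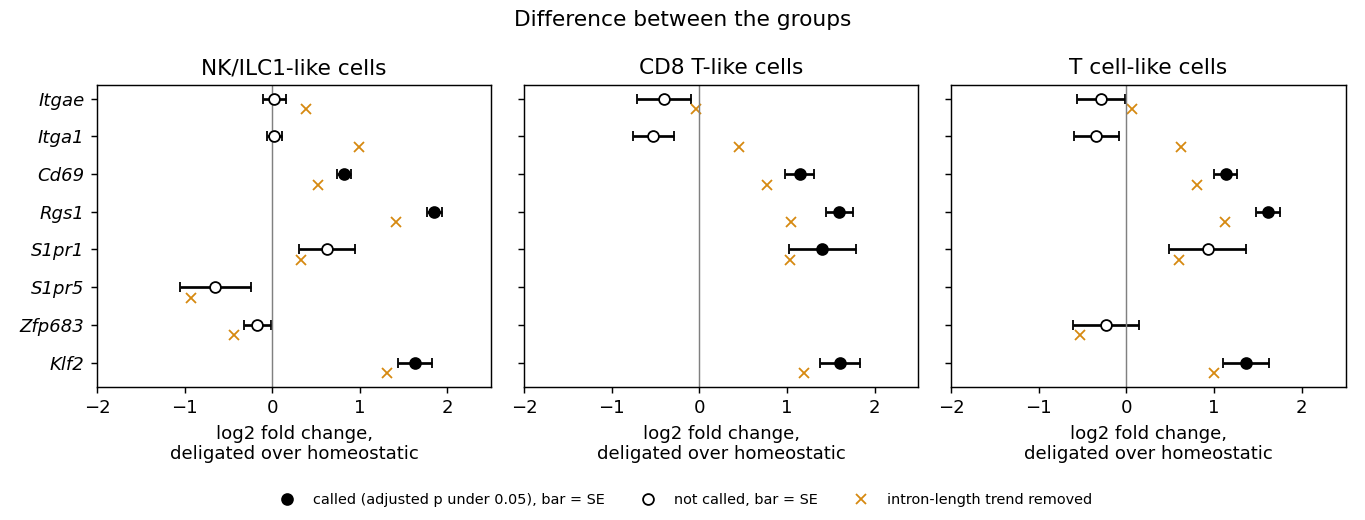
Log2 fold change of each member, deligated over homeostatic, in 3 populations (2 libraries a group), with bars of 1 SE; filled circles passed edgeR's test at an adjusted p of 0.05 and crosses give the value after the trend on intron length was removed. Rgs1, Cd69 and Klf2 lie right of 0 in every panel under both treatments of the data, while Itga1 moves from 0.03 to 1.00 in NK/ILC1-like cells.

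Most genes known to be switched on by stimulation or by tissue dissociation moved the same way as Rgs1, Cd69 and Klf2. Of 17 immediate early and dissociation genes, 11 rose and 1 fell in NK/ILC1-like cells, among them Dusp1, a phosphatase gene (log2 change 2.18, SE 0.12), and Hspa1b, a heat shock gene (1.58, SE 0.29), while Atf3 fell by 2.01. Among CD8 T-like cells 10 of 15 rose and 0 fell. With the intron trend removed 7 rose and 2 fell in NK/ILC1-like cells, beside 11.9% of all genes higher and 17.4% lower, and 3 rose and 0 fell in CD8 T-like cells, beside 2.88% and 3.54%. Their summed level in NK/ILC1-like cells was 5404 and 6296 CPM in the deligated and 3721 and 3558 CPM in the homeostatic libraries. Their part in the rise of Rgs1, Cd69 and Klf2 was not tested. RNA of secretory epithelium moved the other way, its summed genes standing at 37.2 and 56.7 against 1516 and 1144 CPM in NK/ILC1-like cells, and its part in the result was not tested. The summed endothelial genes overlapped between groups there, at 89.8 and 259 against 175 and 110 CPM, yet 3 of 9 were called higher and 0 lower, with and without the intron trend removed (Aqp1 2.67, Egfl7 1.58, Tie1 1.47 in the first fit), in the direction of Klf2. Their part in the rise of Klf2 was not tested beyond the fit without cells holding such UMIs. In CD8 T-like cells homeostatic 1 stood apart, at 998 CPM against 141, 298 and 237 CPM in deligated 1, deligated 2 and homeostatic 2, and 3 of 7 endothelial genes fell, which bears on Itga1, S1pr1 and Klf2, all high in endothelium. CD8 T-like cells of homeostatic 1 with no endothelial UMI held 234 CPM of Itga1, 28.8 CPM of S1pr1 and 173 CPM of Klf2, against 249, 35.2 and 197 CPM in all of them, and the group differences without such cells were -0.53, 1.58 and 1.77 (edgeR adjusted p 0.14, 0.0111 and 2.52e-05). Leaving out cells with an endothelial UMI kept Rgs1, Cd69 and Klf2 called in NK/ILC1-like, CD8 T-like and T cell-like cells.

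Other genes of residency and egress did not move together between groups, and several of their falls belong to genes with long introns. In NK/ILC1-like cells 4 of 18 residency-associated genes rose and 5 fell (list median 0.06 against 0.02 over all genes), near the 16.5% and 26.8% of all genes called. The largest fall, Inpp4b (-2.44), a gene with 772293 bases of introns, came to -0.06 with the intron trend removed, and Litaf (-0.63, 101727 bases) to 0.15, neither then called, while Nr4a2 (-1.72, then -1.88) and Prdm1, which encodes Blimp-1 (0.54, then 1.19), were called both ways. With the trend removed 2 of 18 rose and 2 fell, where 11.9% of all genes were higher and 17.4% lower. Of 19 circulation- and egress-associated genes 4 rose and 5 fell, and 2 and 3 with the trend removed, with Il7r, the interleukin 7 receptor gene, at 1.18 (then 1.12) and the integrin gene Itga2 at -1.49 (then -0.80). In the sphingosine 1-phosphate list 4 of 14 rose and 0 fell either way: Arrb2 (0.72) and Grk2 (0.68), which desensitise receptors, and the G protein gene Gnai2 (0.55) were called in both fits, and Cers2 (0.65), for ceramide synthesis, in the first alone. Of 10 genes of TGF-beta signalling, the signal known to induce CD103, 3 rose and 6 fell, beside 26.8% of all genes, and 3 and 4 with the trend removed. Smad3 (105686 bases of introns) went from -1.98 to -1.18, Tgfbr1 (55176 bases) from -1.43 to -1.04 and Itgav (71776 bases) from -1.21 to -0.67, all 3 called both ways. Among 7 other regulators of G-protein signalling Rgs2 (1.45) and Rgs16 (0.55) rose, and among 5 other Krueppel-like factors Klf6 (1.13) and Klf4 (0.70), the call of Rgs16 ending with the trend removed.

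The same lists in CD8 T-like cells, where 5.21% of all genes were called higher and 13.2% lower, lost calls with the intron trend removed, as did all genes, of which 2.88% were then higher and 3.54% lower. Of 15 circulation genes 2 rose, among them Il7r (0.69), and 2 fell, Foxo1 (-1.42, 76221 bases of introns) and Ripor2 (-1.26, 139966 bases). With the trend removed 0 of the 15 passed edgeR's test (Foxo1 -0.83 and Ripor2 -0.22, adjusted p 0.0778 and 0.685). Of 18 residency genes 2 rose and 3 fell, among them Cxcr6 (0.54) and Itgb1 (-0.75). With the trend removed neither of these was called, 0 fell, and the 2 that rose were Runx3 (0.88) and Prdm1 (2.15), named after their values were seen. Of 10 sphingosine 1-phosphate genes 3 rose and 2 fell, then 0 and 0, and of 10 TGF-beta genes 1 rose and 4 fell, then 1 and 2. Klf6 (1.34, then 1.03) rose both ways and of 5 regulators of G-protein signalling Rgs2 (1.05, then 0.66) was called only before the trend was removed and Rgs3 (0.84), named after its value was seen, only after it.

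The next question was which members share a cell. Among NK/ILC1-like cells thinned to 1000 UMIs, 10 of the 28 pairs of members had at least 5 cells expected by independence in each library, a limit set after seeing the data. All 6 pairs among Itgae, Itga1, Cd69 and Rgs1 were found in the same cell more often than independence gives in all 4 libraries. Itgae with Itga1 had odds ratios from 1.55 to 2.23 and shared 464 cells. In deligated 1, 42.8% of cells with an Itgae UMI also had an Itga1 UMI against 25.1% of those without, and in homeostatic 2 the shares were 40.8% and 27.8%. Cd69 with Rgs1 had odds ratios from 1.18 to 1.34. Thinned to 2000 UMIs, Itga1 with Cd69 was above 1 in 3 of 4 libraries (0.924 to 1.36), and the other 5 pairs in all 4. All 3 pairs of Klf2 with Itgae, Itga1 or Rgs1 had odds ratios under 1 in each library: 0.28 to 0.551 with Itgae, 0.33 to 0.664 with Itga1 and 0.437 to 0.979 with Rgs1. Without cells holding an endothelial UMI, Rgs1 with Klf2 reached 1.08 in 1 library (0.439 to 1.08). Only Cd69 with Klf2 was mixed, at 0.752 and 0.802 in the deligated and 1.86 and 1.13 in the homeostatic libraries, a difference that was not tested and that rests on 11 and 8 shared cells in the homeostatic ones.

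**Figure D3:**
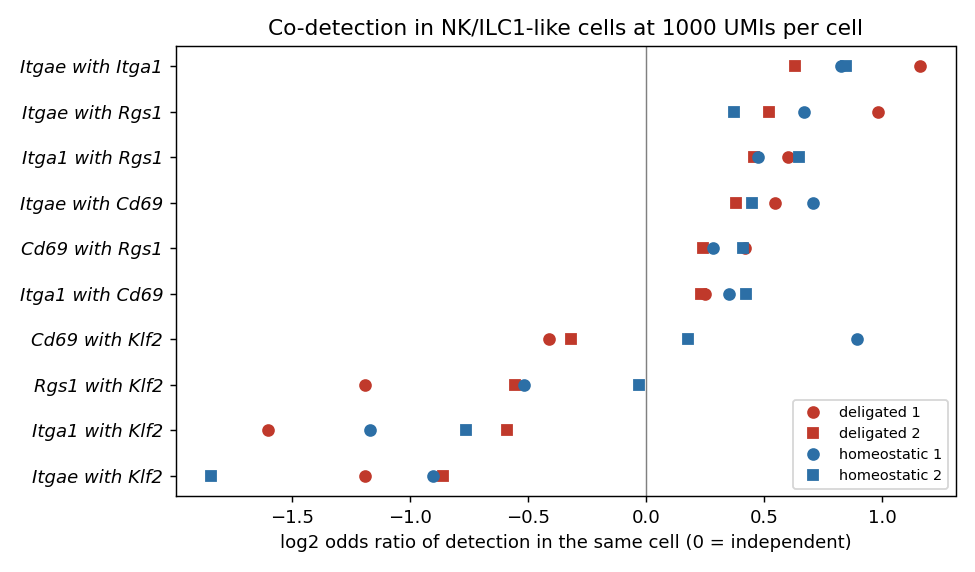
Log2 odds ratio of detecting 2 members in the same NK/ILC1-like cell, after thinning each cell to 1000 UMIs, 1 point per library, for the 10 pairs with enough expected cells. Pairs among Itgae, Itga1, Cd69 and Rgs1 lie right of 0 in all libraries, and Klf2 with Itgae, Itga1 or Rgs1 lies left of 0.

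Counted as states, 8.31%, 10.1%, 9.06% and 8.38% of NK/ILC1-like cells carried both integrins at this depth (deligated 1 and 2, homeostatic 1 and 2). Cells with Cd69 and Rgs1 together made up 25.1% and 24.2% of deligated and 9.06% and 8.67% of homeostatic NK/ILC1-like cells. Both integrins were found together in CD8 T-like cells at shares of 0.939% and 4.37% against 1.82% and 1.85%, and Cd69 with Rgs1 in 12.7% and 19.1% against 5.45% and 0%, the last of 54 cells. No pair had 5 expected cells in every library for CD8 or CD4 T-like cells at 1000 UMIs. Thinned to 2000 UMIs, 5 pairs did in CD8 T-like cells, and Itgae with Itga1 (1.26 to 5.31), Itgae with Rgs1 (1.41 to 2.48) and Itga1 with Cd69 (1.29 to 2.69) had odds ratios above 1 in all 4 libraries, while Itga1 with Rgs1 (0.564 to 2.12) and Cd69 with Rgs1 (0.701 to 1.11) were mixed. Pooled over the 4 libraries, 15 of the 124 CD4 T-like cells carried both Cd69 and Klf2 and 23 both Cd69 and Rgs1, and 1 carried both integrins. Most of the pooled cells were deligated (45 and 42, against 17 and 20), so these counts do not describe each group.

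NK/ILC1-like cells with and without an integrin UMI (Itga1 or Itgae, at full depth) were then compared within libraries, with the library as a block. Integrin UMIs were found in 721, 1815, 803 and 837 cells and not in 171, 285, 203 and 204, and a cell without one may express the gene below detection. Median depth was 5928, 5510, 6349 and 6277 UMIs with and 6145, 5309, 5725 and 5520.5 UMIs without. Rgs1 stood at 2140, 1960, 602 and 607 CPM with an integrin UMI and at 986, 913, 309 and 254 CPM without, higher in 4 of 4 libraries (log2 change 1.04, SE 0.04, edgeR adjusted p 3.49e-17). Klf2 ran the other way, at 76.6, 60.9, 32.9 and 21.0 CPM against 291, 263, 73.8 and 72.6 CPM, lower in 4 of 4 libraries (log2 change -1.90, SE 0.10, edgeR adjusted p 9.27e-15). Zfp683 was higher with an integrin UMI in 4 of 4 libraries, at 14.0, 15.7, 18.6 and 17.5 against 3.61, 7.53, 5.94 and 6.91 CPM (log2 change 1.34, SE 0.24, edgeR adjusted p 7.98e-05), from 4, 12, 7 and 8 UMIs in the cells without. Cd69 was higher by 0.18 (SE 0.06, edgeR adjusted p 0.0268) in 4 of 4 libraries, a call that ended with DESeq2 (adjusted p 0.113), without either deligated library (edgeR adjusted p 0.274 and 0.11) and when cells were split by Itga1 alone (edgeR adjusted p 0.0561). S1pr5 (-1.21, SE 0.48, edgeR adjusted p 0.0734) and S1pr1 (-0.71, SE 0.41, edgeR adjusted p 0.242) were not called. S1pr5 was called without deligated 2 (-1.6, edgeR adjusted p 0.0351) and when cells were split by Itgae alone (-1.72, edgeR adjusted p 0.00283), and S1pr1 was called in cells with no endothelial UMI (-1.28, edgeR adjusted p 0.0408). Beside these 3 of 6 members higher and 1 lower, 10.1% of 10722 genes were called higher and 11.1% lower. Without the library block the calls of Rgs1, Klf2 and Cd69 ended (edgeR adjusted p 0.582, 0.191 and 0.931) at about the same fold changes, and 222 genes in place of 2274 were called.

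CD8 T-like cells were split the same way, and integrin UMIs were found in 88, 122, 36 and 43 cells and not in 125, 61, 19 and 11. Klf2 stood at 304, 291, 229 and 98.4 CPM with an integrin UMI against 563, 555, 124 and 224 CPM without, lower in 3 of 4 libraries (log2 change -0.79, SE 0.17, edgeR adjusted p 0.00559). S1pr1 stood at 67.4, 35.4, 42.4 and 32.8 against 133, 98.4, 19.0 and 44.8 CPM, lower in the same 3 (log2 change -1.04, SE 0.26, edgeR adjusted p 0.0265), the homeostatic cells without an integrin UMI holding 2 S1pr1 UMIs per library. Rgs1 was higher with an integrin UMI (0.60, SE 0.15, edgeR adjusted p 0.0203) in 4 of 4 libraries and Cd69 was not called (0.27, SE 0.13, edgeR adjusted p 0.421). Beside 1 of 4 members higher and 2 lower, 1.44% of 5213 genes were higher and 0.575% lower. The Klf2 call ended in 6 of 11 alternatives: without either deligated library (edgeR adjusted p 0.289 and 0.242), with DESeq2 (adjusted p 0.349), with thinned sums, when cells were split by Itgae alone (edgeR adjusted p 0.264 and 0.0903) and without the library block. The S1pr1 call ended in 5 of the 9 alternatives that gave an adjusted p (DESeq2 gave none): without either deligated library (edgeR adjusted p 0.568 and 0.527), with the split by Itgae alone, in cells with no endothelial UMI (edgeR adjusted p 0.242 and 0.0823) and without the library block. The Rgs1 call ended in 6 of 11: without deligated 2 (0.25, edgeR adjusted p 0.765), without homeostatic 1 (edgeR adjusted p 0.062), with DESeq2 (adjusted p 0.162), with thinned sums, in cells with no endothelial UMI (edgeR adjusted p 0.107 and 0.0511) and without the library block. Without that block 10 genes in place of 105 were called.

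**Figure D4:**
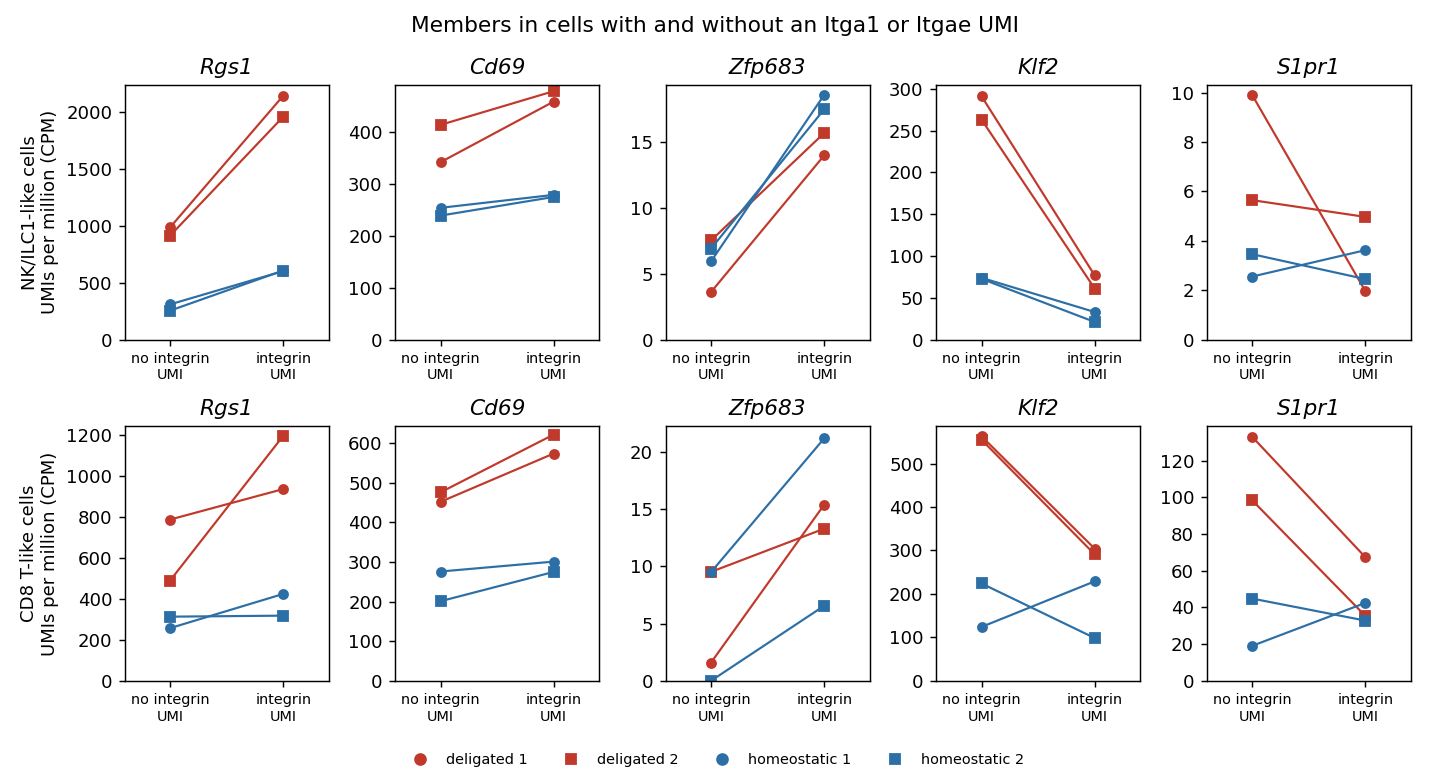
Level of 5 members (CPM, axes from 0) in cells without and with an Itga1 or Itgae UMI, lines joining values of the same library, for NK/ILC1-like cells (upper row) and CD8 T-like cells (lower row). In NK/ILC1-like cells Rgs1 and Zfp683 are higher and Klf2 lower with an integrin UMI in each library, while in CD8 T-like cells homeostatic 1 runs opposite to the others for Klf2 and S1pr1.

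Genes beyond the members differed across the split too. Of 19 circulation- and egress-associated genes 14 were lower and 1 higher in NK/ILC1-like cells with an integrin UMI (list median -1.11 against 0.04 over all genes), among them Tcf7 (-1.89), a factor of early lymphoid cells, Lef1 (-1.61) and Ly6c2 (-1.60). Of 18 residency-associated genes 7 were higher and 7 lower: Cdh1 (1.86), which encodes E-cadherin, and Inpp4b (1.29) were higher, and Nr4a1 (-1.65) and Nr4a3 (-1.23), genes induced by stimulation, were lower. The regulators of G-protein signalling divided, with Rgs18 (1.63) and Rgs2 (0.48) higher and Rgs16 (-1.45) and Rgs19 (-0.50) lower. The receptor gene S1pr3 was higher (2.63, SE 0.37), and the Krueppel-like factor genes Klf3 (-1.35), Klf13 (-0.73) and Klf10 (-0.66) were lower. Of the 17 immediate early genes 7 were lower and 2 higher, and of the genes of other cells 1 of 9 endothelial genes was higher (Kdr, 1.29) and 0 lower, and 2 of 6 secretory genes were higher (Dcpp2 1.64, Dcpp1 1.56) and 1 lower (Klk1 -0.41; list median -0.11). Their part in the split was not tested. Of 10 TGF-beta genes 4 were higher, among them the receptor genes Tgfbr1 (0.65) and Tgfbr2 (0.45), and 2 were lower. In CD8 T-like cells 6 of 18 residency genes were higher and 0 lower (Ahr 1.79, Cdh1 1.36, Xcl1 1.24, Inpp4b 0.94), and 5 of 16 circulation genes were lower and 0 higher (among them Ccr7 -1.81, Eomes -1.23, Lef1 -1.09). The genes with the largest differences there, in the same direction in 4 of 4 libraries, were the granzyme genes Gzmc (859, 1590, 412 and 718 CPM with an integrin UMI against 1.59, 44.4, 0 and 22.4 CPM without) and Gzma (711, 935, 412 and 557 against 19.0, 117, 0 and 22.4 CPM), Klra5, Olfr1259 and Phactr2 among the higher and Serpina3f, Ccr7, Slamf6, Isg15 and Ifi214 among the lower, and reads of near-identical copies in the granzyme, Klra and olfactory receptor families may be split between genes. The corresponding genes in NK/ILC1-like cells were Amph, Gm26888, Rnf180, Bend7 and Gm10389 among the higher, each at 0 or 1 UMI per library in cells without an integrin UMI, and Serpinb9b, Cma1, Mag and Cmah among the lower.

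Whether the split itself differed between groups was tested as an interaction. In NK/ILC1-like cells 37 of 10722 genes passed (0.345%) and no member did: the Klf2 split differed by -0.54 (deligated minus homeostatic, SE 0.17, edgeR adjusted p 0.385), and Rgs1 differed by 0.04 (SE 0.07, edgeR adjusted p 0.968). In CD8 T-like cells 0 of 5213 genes passed with edgeR, and no other tool was run; 228 had an unadjusted p under 0.05. For the group comparison within cells with an integrin UMI, run after seeing the data, Rgs1, Cd69 and Klf2 were called again in NK/ILC1-like cells (1.84, 0.84 and 1.42; edgeR adjusted p 4.28e-06, 8.77e-05 and 0.00103). Among cells without one the values were 1.85, 0.71 and 2.01 (edgeR adjusted p 1.91e-06, 0.00198 and 2.4e-06).

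The split has a counterpart among clusters, which were formed without the members. Cluster 14, found in the deligated libraries, held Itgae at 21.0 and 33.7 CPM and Klf2 at 270 and 265 CPM, whereas cluster 3 of the same libraries held Itgae at 351 and 411 CPM and Klf2 at 41.9 and 46.4 CPM. Cluster 4, with nearly all homeostatic cells, lay closer to cluster 3 for both members, with Itgae at 301 and 305 CPM and Klf2 at 40.3 and 29.8 CPM. At Leiden resolution 2.0, though, the homeostatic NK/ILC1-like cells lay mostly in a cluster of 1417 cells and another of 510 cells. Phactr3 and Il18rap were among the leading genes both of the smaller of them and of cluster 14. Member levels were not measured in these finer clusters, so cluster 14 is not shown to be particular to the deligated libraries. Among T cell-like cells, cluster 26, led by Il17a, Trdv4 and Tcrg-C1, genes of gamma delta T cells, held 0 Zfp683 UMIs and Itga1 at 10.7 and 55.8 CPM in the deligated libraries, against 179 and 289 CPM in cluster 8.

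Across cell classes the members fell into those found in lymphocytes and those shared with vessels. Among named classes Itgae was highest in NK/ILC1-like cells in both groups (mean of 291 CPM in deligated and 302 CPM in homeostatic libraries), followed by T cell-like cells without CD4 or CD8 UMIs (217 and 301 CPM), whose values overlapped them, then CD8 T-like cells (143 and 214 CPM). Among them Rgs1 was also highest in NK/ILC1-like cells (1873 and 549 CPM), with macrophage-like cells at 1030 and 432 CPM. Among named classes Cd69 was highest in T cell-like cells without CD4 or CD8 UMIs (708 and 352 CPM), overlapping CD4 T-like cells (683 and 314 CPM). Itga1 in endothelial-like (808 and 825 CPM) and mural-like cells (604 and 567 CPM) exceeded that in NK/ILC1-like cells (366 and 380 CPM). Schwann-like cells of the deligated libraries had the highest mean (899 CPM, from 25 and 60 cells), overlapping endothelial-like cells (889 to 909 against 725 to 891 CPM). Endothelial-like cells held 462 and 381 CPM of S1pr1 and 1412 and 1035 CPM of Klf2, and B cell-like cells of the deligated libraries 2189 CPM of Klf2. Spns2, the exporter of sphingosine 1-phosphate from endothelium, stood at 63.2 to 85.0 CPM in endothelial-like cells and at 1.23 to 2.09 CPM in NK/ILC1-like cells.

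**Figure D5:**
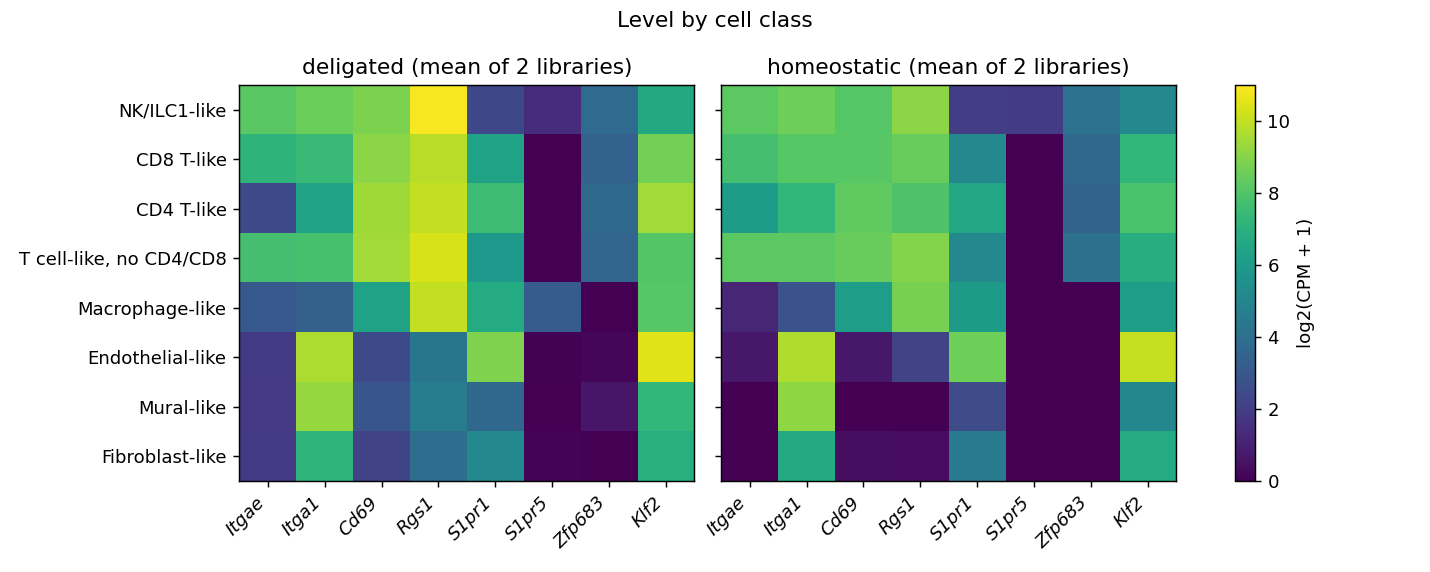
Colour gives log2(CPM + 1) of each member in 8 cell classes, as the mean of the 2 libraries of a group. Among the classes shown Itgae is highest in NK/ILC1-like cells of both groups (291 and 302 CPM), and Itga1, S1pr1 and Klf2 are also high in endothelial-like cells.

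Over 16 sums (4 classes by 4 libraries), the genes whose log2(CPM + 1) ran most like a member's were Fasl for Itgae (Pearson r 0.997), Arap3 for Itga1 (0.975), Hcst for Cd69 (0.997), Dusp2 for Rgs1 (0.995), Mcub for S1pr1 (0.965), Khdc1a for S1pr5 (0.978), Cd200r4 for Zfp683 (0.996) and Tbxa2r for Klf2 (0.946). S1pr1 was the second most like Klf2 of 14771 genes (r 0.946). The points share libraries and classes, so these values are a description.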

How the data were processed

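Single-cell RNA-seq was analysed from the authors' deposited count matrices, which hold raw UMI counts per gene and barcode, made with Cell Ranger 6.0.1 (deligated) and 7.0.0 (homeostatic) per the file headers; the submitters' processing notes name Cell Ranger 6.0.1, Seurat and mm10. Whether introns were counted or strand was used is not given in the sources used here. Of the gene identifiers, 31011 (99.9%) matched GENCODE M21. Libraries held 35662241 to 53898793 UMIs.

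Cells with at least 300 genes and at most 10% mitochondrial UMIs were kept, simulated-doublet scores removed 0.8% per 1000 cells, and 3000 variable genes without the members or the CD4 and CD8 genes were clustered (30 principal components, 20 neighbours, leidenalg 0.10.2, resolution 1.0, no batch correction). Of 36 clusters 29 were named from marker lists (at least 3 markers in 10% of cells at 2-fold), with scoring rules set with the clusters in view. Counts were summed per population and library and tested with edgeR 4.0.16 (quasi-likelihood, TMM, filterByExpr, Benjamini-Hochberg, threshold 0.05), fitted on all genes and checked on simulated data; SE is the fold change over the root of F. Pairs of members were compared after thinning cells to 1000 UMIs (odds with a pseudocount of 0.5). Alternatives included DESeq2 1.42.0, other scaling, filters, cells, clusterings, thinned sums, an intron-length trend and each library left out. Replicate numbers did not pair libraries (correlation of same-numbered deviations -0.12, 0.016 and -0.104 in NK/ILC1-like, CD8 T-like and T cell-like cells). Named genes are the members, up to 4 called genes per list with the largest change, up to 5 per direction of the split, and the gene most like each member. A gene that this rule names is not reported here. The members and lists were chosen with earlier results of these data known. With 2 libraries a group an exact permutation test cannot go below p = 0.333, so single shares were not tested.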

Additional observations from a re-analysis of the deposited data

Results flagged for a closer look

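In NK/ILC1-like cells the difference between cells with and without an integrin UMI itself differed between the deligated and homeostatic groups for 37 genes by a test of the interaction (edgeR adjusted p under 0.05, 4 libraries). No member of the residency and egress set was among them. The smallest adjusted p values belonged to abundant transcripts: Tmsb4x differed by 0.14 on the log2 scale (SE 0.02, edgeR adjusted p 3.03e-06) and Ccl5, a chemokine gene, by 0.19 (SE 0.03, edgeR adjusted p 0.000134). Cd3d differed by -2.59 (SE 0.41, edgeR adjusted p 0.000953) and Ccl3 by -0.73 (SE 0.12, edgeR adjusted p 0.00125), a negative value meaning that the gene was less favoured by integrin-positive cells in the deligated libraries.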

How the results depend on the processing

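In NK/ILC1-like cells Rgs1 (1.41 to 1.93 on the log2 scale), Cd69 (0.52 to 0.87) and Klf2 (1.31 to 2.01) kept direction and edgeR or DESeq2 call in 19 of 19 alternatives, while 8 of 17 ended the S1pr1 call in CD8 T-like cells. Integrin cells only, the crossed block and list counts with the intron trend removed were chosen after seeing the data. Depth limits values that rest on few UMIs, such as S1pr5, Zfp683 and Itgae in CD4 T-like cells; the cause of the changes below was not tested.

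Genes called between groups (4983 in NK/ILC1-like, 1235 in CD8 T-like, 1870 in T cell-like cells) came to 2148, 224 and 583 with thinned sums, to 486 (CD8 T-like) and 1079 (T cell-like) with DESeq2, and to 430 and 826 with the intron trend removed. Stricter doublet removal gave 1182 in T cell-like cells, and integrin-negative cells only gave 2005 in NK/ILC1-like and 837 in T cell-like cells. Leaving out a library gave 2718 to 6249, 485 to 1160 and 997 to 2654, lowest without homeostatic 1 each time. Without homeostatic 2 they were 3007, 650 and 1023. For the integrin split (2274 and 105 genes), DESeq2 called 1197 and 44, thinned sums 279 and 21, no library block 222 and 10, and Itgae alone 281 in CD8 T-like cells, where leaving out a library gave 61 (without deligated 1) to 164 (without homeostatic 2), with 62 without deligated 2.

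The replicate block gave 4637, 1405 and 2050 genes. It brought Itga1 in CD8 T-like (-0.54, adjusted p 0.038 by edgeR) and S1pr1 in T cell-like cells (0.86, adjusted p 0.0132 by edgeR) past the threshold and changed no other member's call. Crossed pairing gave 5261, 1293 and 2707 genes.

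Signs turned for members that were not called. Itgae in NK/ILC1-like cells ran from -0.20 to 0.22 without single libraries and was -0.0055 with stricter doublet removal, -0.024 at Leiden resolution 2.0, -0.0065 without endothelial UMIs and -0.0057 in integrin-positive cells; Itga1 ran from -0.035 to 0.086 and was -0.074 with thinned sums and -0.018 with stricter doublet removal; Zfp683 was 0.17 with thinned sums. Leaving out libraries moved Itgae from -1.06 to 0.12 in CD8 T-like cells, and Itgae from -0.85 to 0.14, Itga1 from -0.87 to 0.061 and Zfp683 from -0.53 to 0.13 in T cell-like cells. Leiden resolution 2.0, which changes the T cells taken, gave called values beyond these ranges, Itgae -1.29 in CD8 T-like and Itgae -1.13 and Itga1 -0.92 in T cell-like cells. With the intron trend removed Itga1 was 0.45 in CD8 T-like and 0.62 in T cell-like cells and Itgae 0.061 in T cell-like cells. Itga1 was 0.014 with thinned sums in CD8 T-like cells, and Itgae 0.27 with stricter doublet removal in T cell-like cells. T cell sub-clusters and CD8 T-like integrin-negative cells held too few cells to be run.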

Other observations

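A population outside the 3 described held Cd69 and Rgs1 UMIs but few of the integrins. Clusters 28 (deligated) and 29 (homeostatic) stayed unnamed and were led by Il1rl1, the interleukin 33 receptor gene, and Areg, with Gata3 UMIs in 88.6% to 97.8% of cells. Over deligated 1 and 2 and homeostatic 1 and 2 they numbered 46, 134, 82 and 79 cells. Cd69 stood at 949, 1142, 584 and 474 CPM and Rgs1 at 370, 369, 211 and 190 CPM. Itgae had 0, 3, 0 and 3 UMIs and Itga1 2, 0, 14 and 27. Klf2 stood at 74.7, 187, 105 and 172 CPM. S1pr5 had 0 UMIs, and Zfp683 had 1, in homeostatic 2. These values carry no test.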
